A study of Mus musculus with 13 samples.

Results

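The genes described here are 10 homophilic adhesion molecules of mouse fibroblasts, the cadherins Cdh2, Cdh3, Cdh4, Cdh11 and Cdh13 and the delta-protocadherins Pcdh7, Pcdh10, Pcdh17, Pcdh18 and Pcdh19. They were taken by symbol from the 55487 genes counted in both deposited tables, and all 10 had enough counts to be tested over the 13 libraries. The study sequenced poly-A RNA of mouse embryonic fibroblasts (MEFs) as primary cultures and again once they had immortalized spontaneously. Primary MEFs (pMEFs) were grown in 10% fetal calf serum and passaged until senescence, and the serum was then raised to 20% until colonies grew out as immortalized lines (iMEFs). The iMEFs were then expanded and grown in 10% serum again. Of the wild-type (WT) libraries, 3 were from pMEFs numbered 3, 4 and 5 and 3 from the line grown from each. Of the libraries labelled Prkd3-/-, a genotype that targets a protein kinase D gene, 3 were from pMEFs numbered 13, 14 and 15 and 4 from lines numbered 13, 13a, 14 and 15. No other allele or agent is named in the labels, and the age of the embryos is not given in the sources used here. The WT pMEFs came from 3 embryos, and lines grew from colonies, so that each line stands for its own outgrowth with 1 library. For the Prkd3-/- libraries the sources do not say whether 13 and 13a were grown apart, and they enter as separate lines.

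Libraries held between 35273408 and 100441756 counts, so that 3 counts correspond to 0.0282 to 0.0837 CPM (a count relative to the size of its library, normalized over the 13 libraries). The Prkd3-/- libraries still held Prkd3 counts, at 43.2, 40.3 and 33.4 CPM in pMEFs and 59.2, 49.2, 60.0 and 43.4 CPM in iMEFs, against 68.4 to 95.5 CPM in WT. A deleted exon cannot be seen in counts per gene, and the name refers to the label. A list of 10 fibroblast markers summed to between 30012 and 96782 CPM, with none of the 10 at 0 in any library. Under 1 CPM were 2 of them in WT line 3, 1 in Prkd3-/- line 13 and 2 in Prkd3-/- line 15. Against WT, 8 of the 10 had a negative Log2FC in Prkd3-/- pMEFs (median −0.84, against 0.01 over all tested genes). Of these 1 was called lower, where 0.765% of all genes were called. Between lines 9 of the 10 were negative (median −0.96, against 0.06) and 0 were called. A list of 10 macrophage markers summed to 733 to 762 CPM in WT pMEFs and 34.7 to 96.2 CPM in WT iMEFs, with 7 of the 10 lower in iMEFs past the thresholds. In the Prkd3-/- libraries that sum was 91.1, 1117 and 218 CPM in pMEFs 13, 14 and 15 and 17.2, 175, 10.4 and 16.1 CPM in lines 13, 13a, 14 and 15, and 7 of the 10 were at 0 in line 13. Of the Prkd3-/- libraries, 3 stood apart from their groups. Prkd3-/- pMEF library 14 differed from pMEFs 13 and 15 by 1.02 and 0.944 in log2 CPM (root mean square over genes), where 13 and 15 differed by 0.612. Line 13a lay nearer to the Prkd3-/- pMEFs, at 0.993 to 1.02, than to the other Prkd3-/- lines, at 1.27 to 1.85. Line 13 differed from the other Prkd3-/- lines by 1.61 to 2.02, where those 3 differed among themselves by 1.27 to 1.42. Several results that rest on any of the 3 libraries are also given without it or as a range over left-out libraries.

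Classical cadherins are single-pass membrane proteins that bind the same cadherin on a neighbouring cell through calcium-dependent extracellular repeats and grip the actin cytoskeleton through beta-, alpha- and p120-catenin. Delta-protocadherins are related proteins with more extracellular repeats and weaker adhesion, and they lack the catenin-binding tail, while several of the delta-2 branch recruit the WAVE actin regulator. Fibroblasts are known for N-cadherin and OB-cadherin rather than the E-cadherin of epithelia, and the protocadherins are best known from neural tissue and limb mesenchyme.

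The members lie on 7 chromosomes of the genome used for counting (GRCm38). Cdh3, Cdh11 and Cdh13 are on chromosome 8, with Cdh3 at chr8:106510891-106557297 on the plus strand, 46054 bases from its neighbour Cdh1. Pcdh10 at chr3:45378398-45435623 on the plus strand and Pcdh18 at chr3:49743296-49757325 on the minus strand share chromosome 3 at a distance of 4.31 Mb. Pcdh17 lies at chr14:84443563-84539002 on the plus strand, Pcdh19 at chrX:133582860-133688987 on the minus strand and Pcdh7 at chr5:57717967-58133230 on the plus strand.

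The promoters of the 4 delta-2 members are shown because they include the members with the largest differences between states and share a motif close to their starts. Each sequence is the 100 bases from 120 to 21 before the RefSeq gene start (GRCm38.p6), written 5′ to 3′ on the strand of the gene, upstream of the transcript. The capitals mark GATTGG, the reverse complement of CCAATC.
Pcdh10, chr3:45378278-45378377, plus strand: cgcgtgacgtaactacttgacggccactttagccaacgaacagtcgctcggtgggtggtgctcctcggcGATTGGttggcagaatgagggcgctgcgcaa
Pcdh17, chr14:84443443-84443542, plus strand: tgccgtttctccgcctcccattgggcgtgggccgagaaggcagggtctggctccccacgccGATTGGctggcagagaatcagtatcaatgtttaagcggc
Pcdh18, chr3:49757337-49757436, minus strand: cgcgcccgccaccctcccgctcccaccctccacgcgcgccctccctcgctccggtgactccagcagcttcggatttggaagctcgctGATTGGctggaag
Pcdh19, chrX:133689014-133689113, minus strand: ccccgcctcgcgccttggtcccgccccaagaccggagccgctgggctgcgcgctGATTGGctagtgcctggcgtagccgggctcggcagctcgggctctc

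The motif began 51 bases before the start of Pcdh10, 59 before Pcdh17, 33 before Pcdh18 and 66 before Pcdh19. Among 32841 RefSeq promoters, 4.56% held GATTGG on the strand of the gene in the same 100 bases. All 4 sequences carry on to GATTGGNTNG, where N is any base, which was found in 0.527% of the promoters, and Pcdh10, Pcdh17 and Pcdh18 to GATTGGNTGG, which was found in 0.286%. The delta-1 member Pcdh7 had no GATTGG in this stretch. The motif was noticed in the sequences and not chosen beforehand, and a match describes letters, not a bound site. In the 300 bases around the start, Pcdh10, Pcdh17, Pcdh18 and Pcdh19 held 24, 26, 23 and 18 CG pairs and Pcdh7 held 11, where the median promoter held 7. The table of promoters used here matched 5 of the 10 members, all of them protocadherins.

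Levels are given first, as CPM normalized over all 13 libraries and, where genes are compared with each other, as CPM per kilobase of exon length. Cdh11, the OB-cadherin of mesenchyme and a type II cadherin, had the highest mean level per kilobase of the 10 members in every group, at 90.4 CPM per kb in WT pMEFs, 114 in WT iMEFs, 56.0 in Prkd3-/- pMEFs and 63.2 in Prkd3-/- iMEFs. In WT pMEFs, Pcdh19, Pcdh18, Cdh3, Pcdh7 and Cdh2 followed with means of 27.7, 22.7, 22.5, 20.8 and 14.8 CPM per kb, and Cdh13 with 7.90. Pcdh10, Pcdh17 and Cdh4 were far lower, at 0.869, 0.516 and 0.163 CPM per kb. Of neighbours in this order, the WT pMEF libraries overlapped only between Pcdh18 and Cdh3.

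The order of the means below Cdh11 changed between groups. In WT iMEFs it ran Pcdh19 (37.4 CPM per kb), Cdh3 (28.3), Pcdh7 (21.3), Cdh2 (13.5), Pcdh18 (11.1) and Cdh13 (10.6), and the libraries of each pair of neighbours in that list overlapped. In Prkd3-/- pMEFs it ran Pcdh19 (29.9), Cdh2 (25.9), Cdh3 (23.6), Pcdh7 (20.7), Pcdh18 (13.5) and Cdh13 (8.22), where only Pcdh7 and Pcdh18 did not overlap. In Prkd3-/- iMEFs it ran Pcdh19 (23.0), Cdh2 (22.9), Pcdh18 (13.9), Pcdh7 (13.2), Cdh13 (12.5) and Cdh3 (7.11), all overlapping from each gene to the next. Cdh3 thus had rank 3 or 4 among the 10 in the other groups and rank 7 in the Prkd3-/- lines, and Cdh4, Pcdh10 and Pcdh17 were the 3 lowest in each group.

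**Figure D1:**
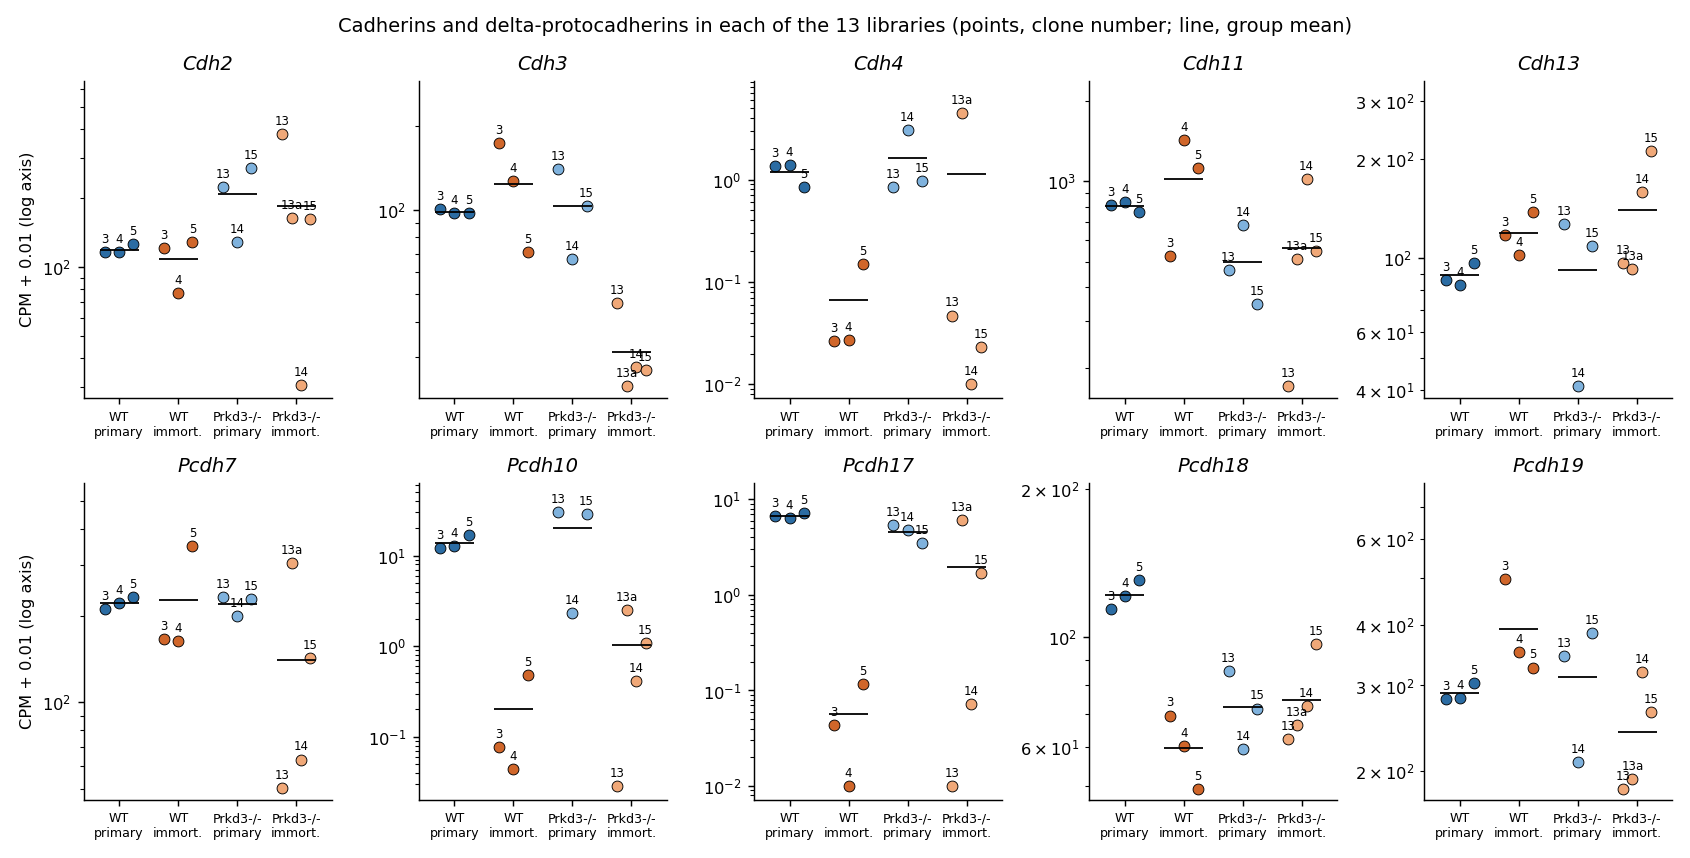
CPM of each member in the 13 libraries on a log axis (0.01 CPM added so that 0 can be drawn), by group, with each point labelled by its clone number and a line at the group mean. Pcdh10, Pcdh17 and Cdh4 lie lower in the WT lines and in most Prkd3-/- lines than in pMEFs, and line 13a lies above the pMEFs for Pcdh17 and Cdh4, while Cdh11 is at 172 CPM or more throughout.

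In the WT comparison of 3 iMEF with 3 pMEF libraries, Pcdh17, Pcdh10, Cdh4 and Pcdh18 were lower in every line than in every primary culture. Pcdh17 fell past the thresholds of an adjusted p-value (FDR) under 0.01 and a |Log2FC| of at least 1, which makes 1 member of 10 called, where 1.82% of 19836 tested genes were called in either direction and 1.76% as lower. No member was called higher, against 0.0605% of all genes. With an adjusted p under 0.05 in its place, 4 members were called lower, where 4.16% of all genes were. An unadjusted p under 0.05 was found for 5 members and for 19.7% of all genes. With the same thresholds, DESeq2 called 4 members (Cdh4, Pcdh10, Pcdh17 and Pcdh18) and 5.94% of all genes, and limma called 0 members and 0.928% of all genes. In edgeR, library size alone as the scaling called Pcdh17 and Pcdh18, against 2.02% of all genes, and no filter on low counts called the same 2 members, against 1.44%. The groups did not overlap for 4 members that were lower, where 15.7% of all genes did so, and for 2 that were higher, Cdh13 and Pcdh19, where 16.6% did. Pcdh17 and Pcdh10 had been noted as lower in this comparison before, and their direction is no separate evidence here. The median Log2FC was 0.29 over the 5 cadherins and −1.07 over the 5 protocadherins, and 0.04 over all tested genes.

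Pcdh17, a delta-2 protocadherin known from presynaptic contacts, had 6.63, 6.32 and 7.14 CPM in WT pMEFs 3, 4 and 5 and 0.0332, 0 and 0.108 CPM in lines 3, 4 and 5. The lines held 2, 0 and 7 counts of the gene, so that each was close to the limit of detection while every primary culture was well above it. Its Log2FC was −7.09 (SE 0.80, derived from the test statistic, adjusted p = 0.00797, edgeR quasi-likelihood test). Against the mean of the pMEFs, line 4 was at least 129-fold lower (3 counts in that library as the floor), line 5 was 62.3-fold lower (95% counting interval 30.2 to 155) and line 3 was 202-fold lower (55.9 to 1667). The call was lost when the clone was used as a replicate block (Log2FC −7.31, adjusted p = 0.0659) and when any single primary library was left out (adjusted p = 0.0551 to 0.0561) or line 3 was (adjusted p = 0.0120).

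Pcdh10, OL-protocadherin, known for axon guidance and for silencing in tumours, had 12.0, 12.7 and 16.7 CPM in the WT pMEFs and 0.0664, 0.0345 and 0.476 CPM in lines 3, 4 and 5. All 3 lines were far below the primary range, and line 5 kept the most, with 31 counts against 4 and 2 in lines 3 and 4. The Log2FC was −6.16 (SE 0.95), and its adjusted p of 0.0222 in edgeR missed the threshold. Without line 5, Log2FC was −8.08 (adjusted p = 0.00075, edgeR), and the gene was called. Without that line 3 members (Cdh4, Pcdh10 and Pcdh17) and 3.66% of all genes were called. Line 3 was 208-fold (81.3 to 764), line 4 400.2-fold (111 to 3304) and line 5 29.0-fold (20.4 to 42.7) below the primary mean.

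Cdh4, the R-cadherin of retina and muscle, was already sparse in WT pMEFs at 1.35, 1.37 and 0.831 CPM and stood at 0.0166, 0.0173 and 0.138 CPM in lines 3, 4 and 5. Lines 3 and 4 held 1 count each and line 5 held 9, below all primary cultures. The Log2FC was −4.32 (SE 0.77, adjusted p = 0.0352, edgeR), short of the threshold, and −6.02 without line 5 (adjusted p = 0.00382), where it was called. For each of these 3 sparse genes, line 5 held the highest residual level of the WT lines.

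Pcdh18, a delta-2 protocadherin of mesenchyme, differed from the 3 sparse genes in staying well expressed. It had 114, 121 and 131 CPM in WT pMEFs and 69.4, 60.3 and 49.2 CPM in the lines, with no overlap between the groups and a narrow range within each. The Log2FC was −1.07 (SE 0.14, adjusted p = 0.0118, edgeR), just short of the threshold on p. It was called when library size alone was used for scaling (Log2FC −1.21, adjusted p = 0.00483, edgeR), a choice that moved the median over all tested genes by −0.18 on the log2 scale in WT. It was also called without line 3 (Log2FC −1.19, adjusted p = 0.00724, edgeR), where 2.65% of all genes were called.

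The other 6 members stayed within a |Log2FC| of 0.39 in WT and none approached the threshold. Cdh13, T-cadherin, which is held by a lipid anchor and has no cytoplasmic tail, had 86.0, 83.3 and 97.0 CPM in pMEFs and 118, 102.4 and 139 CPM in iMEFs. Every line was above every primary culture, but the Log2FC of 0.39 (SE 0.14) had an adjusted p of 0.210 in edgeR. Pcdh19, the X-linked delta-2 member known from an epilepsy gene in humans, had 282, 283 and 303 CPM in pMEFs and 497, 351 and 327 CPM in iMEFs, again without overlap (Log2FC 0.39, SE 0.18, adjusted p = 0.294). For Cdh2, Cdh3, Cdh11 and Pcdh7 the lines lay on both sides of the pMEFs.

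These 4 genes showed a mean difference near 0 that hid large differences between lines. Cdh11 had 813, 834 and 767 CPM in WT pMEFs and 524, 1419 and 1115 CPM in lines 3, 4 and 5, so line 3 was below and lines 4 and 5 above (Log2FC 0.31, SE 0.36, adjusted p = 0.697). Cdh3, P-cadherin, had 101, 97.5 and 97.3 CPM in pMEFs and 174, 127 and 70.8 CPM in the lines, where line 5 alone was below the pMEFs (Log2FC 0.29, SE 0.31, adjusted p = 0.661). Pcdh7, NF-protocadherin of the delta-1 branch, had 210.4, 221 and 231 CPM in pMEFs and 166, 164 and 349.7 CPM in lines, and only line 5 was higher (Log2FC 0.00, SE 0.33, adjusted p = 0.999). Cdh2, N-cadherin, a catenin-binding cadherin of neural and mesenchymal cells, stayed within 116 to 126 CPM in pMEFs and was 121, 77.3 and 129 CPM in lines 3, 4 and 5 (Log2FC −0.17, SE 0.20, adjusted p = 0.700). Line 4 thus held the least Cdh2 and the most Cdh11, and line 5 the least Cdh3 and the most Pcdh7. Without line 5, Pcdh7 had a Log2FC of −0.47 (adjusted p = 0.0251, edgeR), below the fold threshold.

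The spread between libraries was larger among WT iMEFs than among WT pMEFs for all 10 members, as it was for 89.3% of all tested genes. The same was found for 7 members in Prkd3-/-, where 82.4% of tested genes had the larger spread among lines, and the 3 exceptions were Cdh3, Cdh13 and Pcdh19. Over all genes the WT pMEF libraries differed from each other by 0.406 to 0.460 in log2 CPM (root mean square) and the WT lines by 1.21 to 1.40. In WT the coefficient of variation of CPM lay between 2.05% (Cdh3) and 25.7% (Cdh4) over the 3 pMEF libraries and between 15.2% and 128% over the 3 lines. In bulk RNA, fewer cells that express a gene and less RNA per cell cannot be told apart. Markers of several other cell types moved with state in WT as well. Beside the macrophage markers, the sum of 8 endothelial markers was 12.2 to 16.6 CPM in WT pMEFs and 0.697 to 2.10 CPM in WT iMEFs, with 5 tested, all of them with a negative Log2FC (median −3.35), and 1 called lower. Between 1 and 4 of the 8 were at 0 in the WT lines, and 2 were at 0 in each WT pMEF library. The sum of 8 epithelial markers was 2.49 to 2.85 CPM in WT pMEFs and 0.265 to 0.673 CPM in WT iMEFs, and the 2 that were tested, Cdh1 among them, were lower at an adjusted p under 0.05. Sums of Schwann cell and of skeletal muscle markers went from 5.02 to 5.26 and from 22.9 to 26.5 CPM in WT pMEFs to 0.614 to 3.24 and 0.845 to 7.50 CPM in WT iMEFs, with none called. The sum of neuronal markers was 36.0 to 40.03 CPM in WT pMEFs and 38.7 to 143 CPM in WT iMEFs. For Prkd3-/- the endothelial, epithelial and Schwann cell sums overlapped between the states. They were 15.5 to 29.3, 1.72 to 2.90 and 1.23 to 5.78 CPM in pMEFs. In the lines they were 1.67 to 17.7, 0.494 to 4.48 and 0.593 to 13.5 CPM. Skeletal muscle sums were lower in every line (0.130 to 1.01 CPM) than in every pMEF library (4.80 to 28.9 CPM). So were neuronal sums (11.2 to 65.2 against 89.6 to 113 CPM). The part of these cells in the lower Pcdh17, Pcdh10, Cdh4 and Pcdh18 was not tested.

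The Prkd3-/- lines were compared with Prkd3-/- pMEFs in the same way, and no member was called among 20298 tested genes, of which 0% were called by edgeR. DESeq2 called 1 member (Cdh3) and 0.781% of all genes, and limma called 0 members. Without line 13, edgeR called none of the members either, and the same held without line 13a and without pMEF library 14. The share of all genes called is not given for limma or for these left-out libraries, so their 0 is no result about the members. An unadjusted p under 0.05 was found for 2 members, Cdh3 and Pcdh10, and for 6.56% of all genes. Cdh3 was the single member without overlap between the groups, being lower in all 4 lines, where 5.53% of all genes were lower without overlap and 3.83% higher. Pcdh10 was lower in each line than in the primary culture of the same clone number, in 4 of 4 lines here and 3 of 3 in WT. The paper states this pairing for the WT samples, and line 13a was set against pMEFs 13 by its number. At 2.53 CPM, line 13a was above pMEF library 14 (2.34 CPM), so the 4 of 4 depends on that choice. Against the primary culture of the same number, Pcdh17 and Cdh4 were lower in 3 of 4 lines, with line 13a as the exception. The median Log2FC was −0.17 over the 5 cadherins and −0.64 over the 5 protocadherins, and 0.07 over all tested genes.

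Cdh3 had 140.0, 66.7 and 103 CPM in Prkd3-/- pMEFs 13, 14 and 15 and 46.6, 23.6, 27.6 and 26.8 CPM in lines 13, 13a, 14 and 15. The highest line was below the lowest primary culture, and the lines spanned 1.98-fold and the pMEFs 2.10-fold. The Log2FC was −1.72 (SE 0.33) with an unadjusted p of 0.00104 and an adjusted p of 0.296 in edgeR. DESeq2 called the gene at the same thresholds (Log2FC −1.72, adjusted p = 0.00513). Without pMEF library 14 and line 13a the Log2FC was −1.85 (adjusted p = 0.282, edgeR), and without line 13 it was −1.98 (adjusted p = 0.219).

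Pcdh10 had 30.03, 2.34 and 28.6 CPM in Prkd3-/- pMEFs 13, 14 and 15 and 0.0185, 2.53, 0.404 and 1.08 CPM in lines 13, 13a, 14 and 15. The pMEF library 14 fell within the range of the lines, and the groups overlapped through it and line 13a. The Log2FC was −4.33 (SE 1.34, adjusted p = 0.631, edgeR), and −5.86 without both libraries (SE 1.29, adjusted p = 0.339). Without line 13 it was −3.92 (SE 1.11, adjusted p = 0.408). Line 13 held 1 count, which is 1096-fold below the primary mean with a 95% counting interval of 197 to 43291. The low Pcdh10 in pMEF library 14 came with the highest macrophage marker sum of the series, and its part was not tested.

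Pcdh17 had 5.39, 4.81 and 3.49 CPM in Prkd3-/- pMEFs and 0, 6.05, 0.0622 and 1.68 CPM in lines 13, 13a, 14 and 15. Line 13a was above all 3 pMEFs, lines 13 and 14 were at 0 and 4 counts, and line 15 was between. Line 13 was at least 82.0-fold and line 14 73.3-fold (28.6 to 269) below the primary mean, while line 15 was 2.71-fold below it (2.28 to 3.25). The Log2FC was −1.22 (SE 1.55, adjusted p = 0.894, edgeR) with 13a and −2.96 without it (SE 1.57, adjusted p = 0.711). Without line 13 it was −0.81 (adjusted p = 0.855).

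Cdh4 had 0.830, 3.01 and 0.948 CPM in the pMEFs and 0.0371, 4.48, 0 and 0.0134 CPM in lines 13, 13a, 14 and 15. Line 13a was the highest of the 13 libraries, and the other 3 lines held 2, 0 and 1 counts. The Log2FC moved from −0.49 (SE 1.89, adjusted p = 0.970) to −6.50 (SE 1.07, adjusted p = 0.151, edgeR) when line 13a was left out. In line 13a the 3 sparse genes were thus all measurable, with 326 counts of Cdh4, 184 of Pcdh10 and 440 of Pcdh17, and the same library held the highest macrophage marker sum of the 7 lines. The part of other cells in it was not tested.

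The abundant members varied between the Prkd3-/- lines in size rather than in presence. Cdh2 ranged from 129 to 272 CPM in pMEFs and was 382, 163, 30.3 and 163 CPM in lines 13, 13a, 14 and 15, which is 12.6-fold between line 13 and line 14 (Log2FC −0.17, SE 0.71, adjusted p = 0.973, and −0.81 without line 13, adjusted p = 0.696). Cdh11 was 464, 687 and 346 CPM in pMEFs and 172, 509, 1022 and 549 CPM in the same lines, so line 13 had the most Cdh2 and least Cdh11 and line 14 the reverse. The Log2FC of Cdh11 was 0.19 (SE 0.55, adjusted p = 0.963), and 0.49 without line 13 (adjusted p = 0.687). Pcdh7 was 231, 199.8 and 228 CPM in pMEFs and 50.6, 304, 63.4 and 143 CPM in the lines, with only line 13a above the pMEFs (Log2FC −0.64, SE 0.59, adjusted p = 0.870; −1.36 without 13a, adjusted p = 0.401).

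Pcdh18, Pcdh19 and Cdh13 were each within a 2.28-fold range among the Prkd3-/- lines. Pcdh18 was 85.4, 59.5 and 71.7 CPM in Prkd3-/- pMEFs and 62.2, 66.4, 72.4 and 96.8 CPM in the lines, with overlapping ranges (Log2FC 0.05, SE 0.22, adjusted p = 0.974). Pcdh19 was 345, 209 and 384 CPM in pMEFs and 183, 192, 320.1 and 265 CPM in the lines (Log2FC −0.37, SE 0.30, adjusted p = 0.855). Cdh13 was 127, 41.0 and 109 CPM in pMEFs, where library 14 was the lowest, and 96.8, 93.0, 159 and 212 CPM in the lines (Log2FC 0.61, SE 0.46, adjusted p = 0.851).

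**Figure D2:**
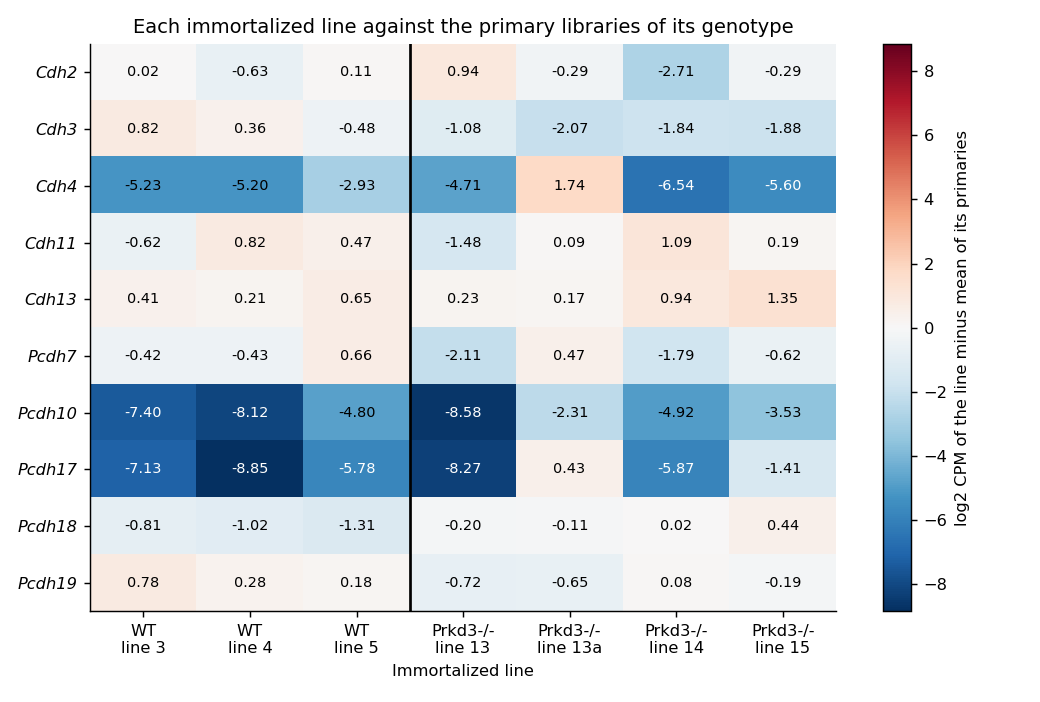
Heat map of log2 CPM (prior count 1) of each of the 7 lines minus the mean of the pMEFs of its genotype, with the members in rows and the lines in columns. Pcdh10 is negative in all 7 lines, from −8.58 in Prkd3-/- line 13 to −2.31 in line 13a, whereas Cdh4 and Pcdh17 are positive in line 13a, at 1.74 and 0.43.

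The interaction term of a fit to the 13 libraries asks whether the change between states depends on genotype. No member passed, where 0% of 21197 tested genes did at an adjusted p under 0.05 in edgeR. DESeq2 called 0 members and 0.123% of all genes, and limma 0 members as well, with its share of all genes not given. An unadjusted p under 0.05 was found for 3 members and for 3.97% of all genes. For Pcdh18 the change was higher by 1.14 in Prkd3-/- on the log2 scale (SE 0.27, unadjusted p = 0.00145, adjusted p = 1.00), since WT lines were all below their pMEFs and Prkd3-/- lines were not. For Cdh3 the difference was −1.997 (SE 0.49, unadjusted p = 0.00177, adjusted p = 1.00), as lines of Prkd3-/- were all lower. DESeq2 gave adjusted p-values of 0.121 and 0.116 for these 2 genes. Pcdh17 differed by 5.88 (SE 2.21, unadjusted p = 0.0214), and by 4.17 without line 13a (SE 1.91, adjusted p = 0.869). Without line 13 the differences of Pcdh18, Cdh3 and Pcdh17 were 1.21, −2.27 and 6.29 (adjusted p = 0.516, 0.449 and 0.553, edgeR). The other members had unadjusted p-values over 0.05. Their differences were 0.0176 for Cdh2, −0.12 for Cdh11, 0.22 for Cdh13, −0.64 for Pcdh7 and −0.76 for Pcdh19, with SE of 0.86, 0.72, 0.55, 0.76 and 0.37. The sparse Cdh4 and Pcdh10 differed by 3.84 (SE 2.53) and 1.84 (SE 1.71). With 1 library left out at a time, the difference of Pcdh10 ran from 0.86 to 3.75, and over the other settings from 0.33 to 2.78.

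**Figure D3:**
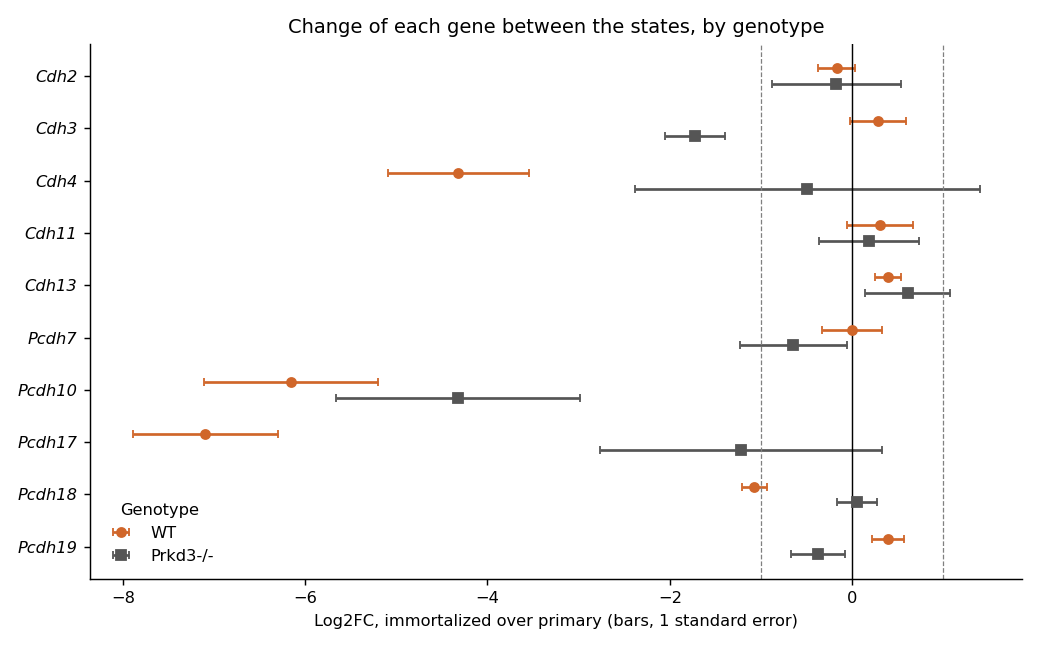
Log2FC of iMEFs against pMEFs for each member, with a standard error derived from the test statistic, in WT (circles) and Prkd3-/- (squares), and dashed lines at −1 and 1. Pcdh17 at −7.09 and Pcdh10 at −6.16 lie farthest below 0 in WT, and the Prkd3-/- estimates of Pcdh17, Cdh4 and Pcdh10 carry standard errors of 1.55, 1.89 and 1.34.

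Before immortalization, the pMEFs of the genotypes were compared with each other. Genotype and count table cannot be told apart in this comparison. No member was called by edgeR, DESeq2 or limma, where edgeR called 0.765% of 20403 genes and DESeq2 3.71%. The share called by limma is not given. An unadjusted p under 0.05 was found for 4 members and for 24.1% of all genes. Pcdh18 was lower in all 3 Prkd3-/- pMEFs than in all WT pMEFs, at 72.2 ± 12.9 against 122 ± 8.28 CPM (SD, n = 3 each, Log2FC −0.76, SE 0.14, adjusted p = 0.0353, edgeR). Cdh11, at 499 ± 173 against 805 ± 34.6 CPM (Log2FC −0.69, adjusted p = 0.142), and Pcdh17, at 4.56 ± 0.978 against 6.70 ± 0.415 CPM (Log2FC −0.55, adjusted p = 0.1195), were also lower without overlap. Cdh2 was higher without overlap, at 209 ± 73.2 against 119 ± 5.64 CPM (Log2FC 0.81, SE 0.27, adjusted p = 0.137). That makes 3 members lower and 1 higher without overlap, where 17.3% and 16.8% of all genes were. Of the rest, Cdh3 (Log2FC 0.07, SE 0.25), Cdh13 (0.06, SE 0.40), Pcdh7 (−0.00514, SE 0.09) and Pcdh19 (0.12, SE 0.23) were near 0, and Cdh4 had 0.45 (SE 0.54).

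Library 14 decided whether 2 of these members were called. Without it, Cdh2 had a Log2FC of 1.06 (SE 0.09, adjusted p = 0.000304) and Pcdh10 of 1.09 (SE 0.14, adjusted p = 0.00154, edgeR), and both were called higher in Prkd3-/- pMEFs, where 7.13% of all genes were called in either direction. With it, Pcdh10 had 0.56 and its groups overlapped. Cdh4 was at 3.01 CPM in library 14 and at 0.830 and 0.948 CPM in pMEFs 13 and 15. Its Log2FC fell to −0.44 at the lowest when 1 library was left out. The call for Pcdh18 stayed short of the fold threshold without library 14 (Log2FC −0.63, adjusted p = 0.00146).

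Between the lines of the 2 genotypes, 8 members were tested and none was called by edgeR, where 0.0406% of 19683 genes were. Genotype and count table cannot be told apart here either. An unadjusted p under 0.05 was found for 2 members, Cdh3 and Pcdh19, and for 6.88% of all genes. Cdh4 and Pcdh17 had too few counts in the lines to be tested. Cdh3 was lower in all 4 Prkd3-/- lines than in all WT lines, at 31.1 ± 10.5 (SD, n = 4) against 124 ± 51.8 CPM (n = 3, Log2FC −1.94, SE 0.37, adjusted p = 0.246, edgeR). DESeq2 called it, among 0.744% of all genes, and limma did not, with a DESeq2 Log2FC of −1.97 and an adjusted p of 0.00164. Pcdh19 was also lower without overlap, at 240.2 ± 64.6 against 392 ± 92.3 CPM (Log2FC −0.66, SE 0.27, adjusted p = 0.718), and 5.06% of all genes were lower and 3.87% higher without overlap. Pcdh10 averaged 1.01 CPM in the Prkd3-/- and 0.192 CPM in the WT lines (Log2FC 2.39, SE 1.46, adjusted p = 0.759), with overlap between the groups. With 1 library left out at a time, its Log2FC ran from 1.40 to 4.29. Cdh2 had a Log2FC of 0.81 (SE 0.72), Cdh11 of −0.82 (SE 0.59), Cdh13 of 0.27 (SE 0.33), Pcdh7 of −0.66 (SE 0.65) and Pcdh18 of 0.37 (SE 0.22), all overlapping. Without line 13 the Log2FC of Cdh3 was −2.21 (adjusted p = 0.181, edgeR). These tests and the tests within a genotype share libraries, so they are not separate evidence on a gene.

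The makeup of the cadherin repertoire followed from these levels. Of the 19 cadherins summed per kilobase (5 members and 14 other classical cadherins), the members made up 90.4% to 98.7% in each library. Cdh11 was first in 12 of 13 libraries, with 63.6 ± 1.64% of the total in WT pMEFs (SD, n = 3) and 64.7 ± 16.7% in WT iMEFs, and 45.7 ± 16.6% and 52.6 ± 22.7% in the Prkd3-/- groups. The exception was Prkd3-/- line 13, where Cdh2 took 52.2% and Cdh11 21.2%, and in line 14 Cdh2 took 2.47%. Cdh3 was second in all 6 WT libraries. It took 12.7% to 24.2% in Prkd3-/- pMEFs and 4.14% to 11.7% in Prkd3-/- lines.

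Of the 9 delta-protocadherins summed per kilobase, the 5 members made up 81.9% to 99.5%. Pcdh19 was first in 11 of 13 libraries and Pcdh7 in the other 2, WT line 5 with 41.5% and Prkd3-/- line 13a with 43.4%. In WT, Pcdh19 went from 34.8 ± 0.499% in pMEFs to 47.2 ± 6.87% in iMEFs (SD, n = 3 each) and Pcdh18 from 28.6 ± 0.657% to 14.2 ± 2.82%. These are shares of a sum, so a change in 1 gene moves the shares of the others, and they were not tested.

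**Figure D4:**
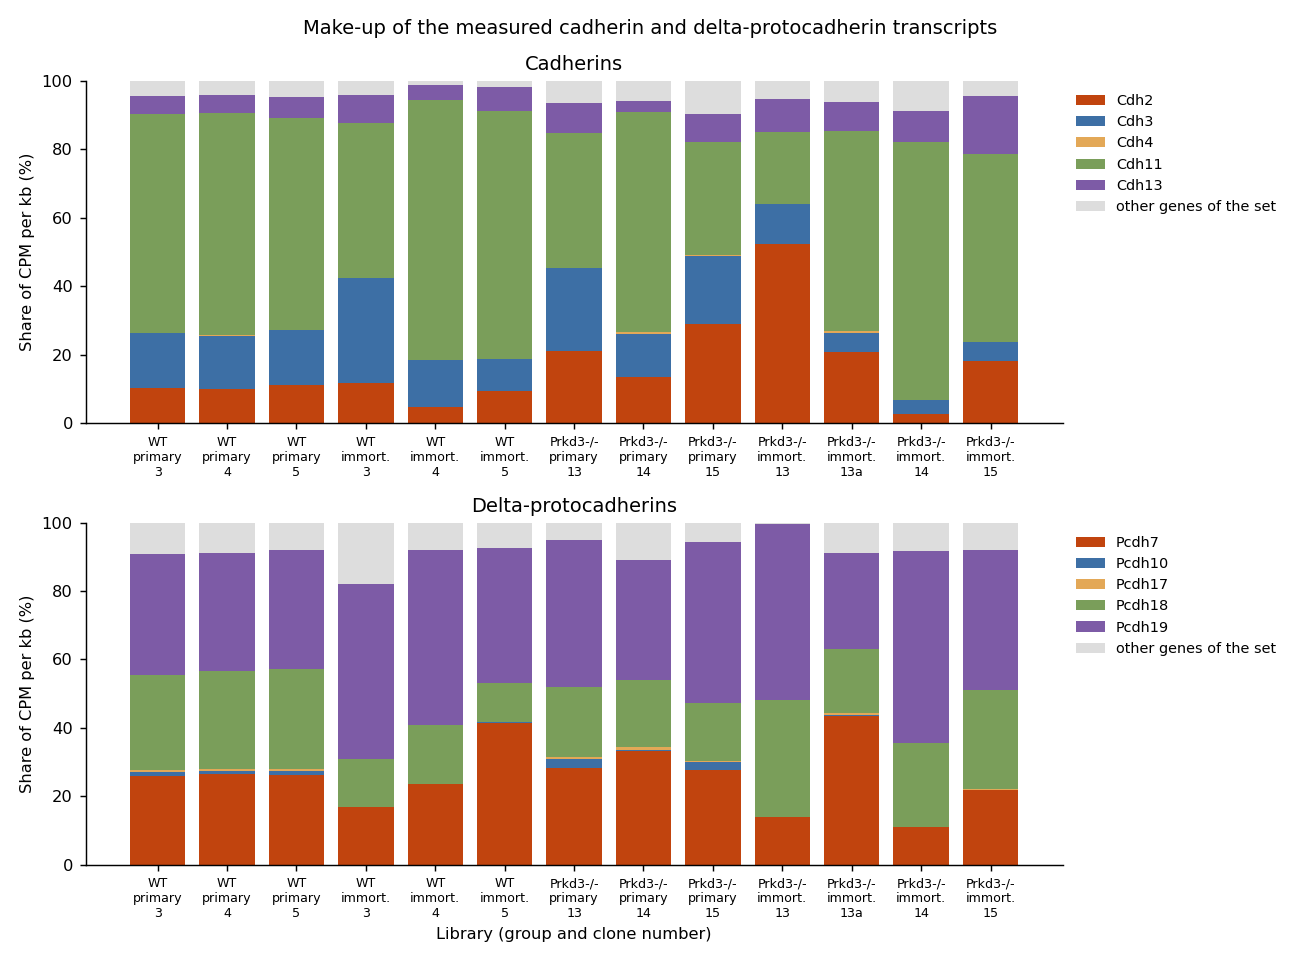
Stacked shares of CPM per kb (percent) of the members among 19 cadherins and among 9 delta-protocadherins in each of the 13 libraries. Cdh11 takes the largest share except in Prkd3-/- line 13, and the Pcdh18 share is smaller in the WT lines than in the WT pMEFs.

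Other genes of the same families were also counted. Of 14 other classical cadherins, 8 were tested in WT and 1 was called lower, Cdh8, a type II cadherin of the nervous system. It had 0.789, 1.11 and 0.884 CPM in WT pMEFs and no count in any WT line, at least 17.9-fold lower (floor of 3 counts in the library with the highest floor, adjusted p = 0.00795, edgeR). In Prkd3-/- pMEFs it was at 0.0231, 0.0469 and 0.0279 CPM (2, 5 and 1 counts), called lower than in WT pMEFs (adjusted p = 0.00249), and it had no count in the 4 lines. Cdh1, the E-cadherin of epithelia, was below 1 CPM in all WT libraries (Log2FC −2.43, adjusted p = 0.0495) and reached 3.72 and 1.31 CPM in Prkd3-/- lines 13a and 14. In Prkd3-/- none of 7 tested passed, and Cdh18, the most abundant of them, had a Log2FC of −0.32 (adjusted p = 0.967).

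Of the 4 other delta-protocadherins none was called in either genotype. Pcdh9, a delta-1 protocadherin and the one with the highest mean over the 13 libraries, averaged 39.4 CPM in WT pMEFs and 24.5 CPM in WT iMEFs (Log2FC −0.73, adjusted p = 0.406), and its Log2FC in Prkd3-/- was −0.46 (adjusted p = 0.931). The other 3 are named with their values known. Pcdh1, also of the delta-1 branch, had 7.16, 6.21 and 6.22 CPM in WT pMEFs and 98.7, 32.0 and 12.7 CPM in WT lines 3, 4 and 5, every line above every primary culture (Log2FC 2.82, SE 0.74, adjusted p = 0.108, edgeR). Pcdh8 held 12, 14 and 19 counts in WT pMEFs and 0, 0 and 3 in WT lines (Log2FC −3.65, SE 0.98, adjusted p = 0.112). Pcdh11x was at 3.75 to 4.49 CPM in WT pMEFs and at 6.602, 0.0345 and 4.90 CPM in the lines, so that only line 4 was near 0.

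Of 12 catenins and actin linkers, 11 were tested in each genotype and none was called. The Log2FC in WT ran from −6.97 to 0.80, and 1 gene was lower at an adjusted p under 0.05. This was Ctnna2, the neural alpha-catenin, named with its values known, which had 9.48, 10.4 and 11.1 CPM in WT pMEFs and 0, 0.190 and 0.0615 CPM in lines 3, 4 and 5 (Log2FC −6.97, SE 0.90, adjusted p = 0.0125, edgeR). In Prkd3-/- it had 3.56, 8.86 and 3.15 CPM in pMEFs and 0.0742, 5.94, 0.420 and 18.6 CPM in lines 13, 13a, 14 and 15, on both sides of the pMEFs (Log2FC 0.28, adjusted p = 0.981). Ctnnb1, beta-catenin, averaged 699 CPM in WT pMEFs and 792 CPM in WT iMEFs (Log2FC 0.14, adjusted p = 0.603) and 776 and 769.5 CPM in the Prkd3-/- groups (adjusted p = 0.999). Ctnna1, alpha-catenin, had a Log2FC of 0.24 in WT (adjusted p = 0.419) and 0.40 in Prkd3-/- (adjusted p = 0.843). Ctnnd1, p120-catenin, had 0.20 in WT (adjusted p = 0.364) and 0.07 in Prkd3-/- (adjusted p = 0.985). Vcl, vinculin, the most abundant of the list, had 0.38 in WT (adjusted p = 0.620) and −0.40 in Prkd3-/- (adjusted p = 0.843).

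Of 11 genes of the WAVE complex, through which delta-2 protocadherins act on actin, 1 was called in WT. This was Nckap1l, the subunit of blood cells, lower in WT lines with a Log2FC of −4.44 (adjusted p = 0.00807), in the same libraries as the macrophage markers. The general subunit Nckap1 had 0.31 in WT (adjusted p = 0.360) and 0.11 in Prkd3-/- (adjusted p = 0.936), where none of 11 was called. Of 6 transcriptional repressors of cadherins none was called. Zeb1, the most abundant of them, had a Log2FC of 0.53 in WT (adjusted p = 0.0715) and 0.16 in Prkd3-/- (adjusted p = 0.935). Of 9 proteases that process cadherins or their fragments none was called either, with a Log2FC from −4.28 to 0.14 in WT, and Adam10, the main sheddase of N-cadherin, had 0.12 in WT (adjusted p = 0.548) and −0.02 in Prkd3-/- (adjusted p = 0.994).

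For each member, the genes with the most similar profile over the 13 libraries were found by the root mean square difference of centred log2 CPM among 21197 genes. Sh3pxd2a at 0.1202 and Gm49599 at 0.162 were nearest to Pcdh19, and Sbk1 at 0.250 and Il12rb2 at 0.270 to Pcdh18. For Pcdh7 it was 4932441J04Rik at 0.103, whose exons cover 21.1% of the exon bases of Pcdh7, and then Gm2a at 0.345. In the WT table, counted without strand, reads in the bases that this pair shares cannot be told apart, and the counting of the Prkd3-/- table is not given. Gm45257 at 0.228, which lies within Cdh11, and Copz2 at 0.257 were nearest to Cdh11, and Gm37581 at 0.254 and C030034L19Rik at 0.295 to Cdh13. Cdh2 was nearest to Prkar2b at 0.355 and Gm14453 at 0.385, and Cdh3 to Gm29491 at 0.413 and Pgam2 at 0.440.

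The difference grows with the spread of the member itself, which was largest for the sparse members. Chl1 at 0.759 and Ednrb at 0.969 were nearest to Pcdh10, Alx1 at 0.926 and Aldh1a2 at 1.06 to Pcdh17, and Vwc2 at 1.01 and Pak7 at 1.02 to Cdh4. Relative to the SD of the member over the 13 libraries, the nearest genes of Pcdh10, Pcdh17 and Cdh4 were at 0.226, 0.265 and 0.360, and those of the other members between 0.133 (Pcdh7) and 0.593 (Pcdh18). Pcdh10 and Pcdh17 differed from each other by 1.30, and each was among the 8 nearest genes of the other. Neighbouring genes within 2 Mb and with a mean of at least 5 CPM were compared between states as well, relative to the median of the autosomes. The 63 genes around Cdh3 had median log2 ratios between 0.05 and 0.27 over the 7 lines, and the 38 around Cdh4 between −0.08 and 0.14. The 10 around Cdh11 had medians from 0.14 to 0.45 and the 29 around Cdh13 from −0.18 to 0.37. For the 5 around Cdh2 they ran from −0.46 to 0.06, for the 9 around Pcdh18 from −0.26 to 0.26 and for the 13 around Pcdh19 from −0.24 to 0.45. Over all such genes, chromosome 3 had medians from −0.34 to 0.04 and chromosome 8 from −0.02 to 0.24. Around Pcdh10 there was 1 such gene, Pabpc4l, whose log2 ratio was negative in all 7 lines, from −5.51 in Prkd3-/- line 13 to −0.15 in line 15. Around Pcdh7 there were 2, among them 4932441J04Rik with its shared exon bases, with medians from −0.98 in Prkd3-/- line 13 to 0.21 in WT line 5, the lines in which Pcdh7 itself was lowest and highest. Around Pcdh17 there was none.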

How the data were processed

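The authors mapped paired reads to mm10 with STAR 2.7.10a, used SAMtools 1.18 and counted them on Ensembl genes (GRCm38) with featureCounts of Subread 2.0.6, and deposited raw counts per gene for each genotype as a table of its own. The WT table was counted without strand and with pairs assigned to every gene they overlap, and the counting command behind the Prkd3-/- table is not given in the sources used here. Counts were used as deposited, from 2 tables with the same 55487 genes. PCR copies are not independent molecules, so intervals (95%, exact Poisson) and the floor of 3 counts cover counting error only.

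Each comparison was fitted on all genes that passed edgeR's filter on low counts with the quasi-likelihood test of edgeR 4.0.16 (TMM, robust estimation) in R 4.3.3, with Benjamini-Hochberg adjusted p-values and thresholds of 0.01 and a |Log2FC| of 1, or 0.05 for the interaction of all 13 libraries. CPM used TMM factors over the 13 libraries, and log2 CPM a prior count of 1. Each main edgeR fit was first tested on simulated data with known changes. The changed genes there were large in effect and well counted, and the simulated spread was small, so that test does not cover the sparse members. DESeq2, limma, the joint fit and the block were not simulated. Alternatives were DESeq2 1.42.0, limma 3.58.1, other scalings and filters, a joint fit, a block and left-out libraries, and leaving out pMEF library 14 and line 13a together was added after the data were seen. Shares of all genes called refer to the genes with an adjusted p under the same setting.

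The clone numbers in the sample names pair each WT line with the pMEFs it was grown from, so that same-numbered WT samples share an embryo. For Prkd3-/- the pairs were read from the numbers alone, with line 13a set against pMEFs 13. Deviations from the group means correlated by −0.0333, 0.0187 and −0.0392 within the 3 WT pairs. For Prkd3-/- lines 13, 14 and 15 they correlated by 0.142, 0.0872 and 0.0401 with the pMEFs of the same number. Line 13a correlated by −0.283 with pMEFs 13 and by 0.336 with pMEFs 14. No source says that Prkd3-/- libraries of a group are separate animals, and p-values there cover the spread between libraries, which may be technical.

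Members and gene lists were chosen with earlier results of these data known. All 10 members are named in each comparison, and from each other list the called genes (up to 4 with the smallest p) or else the most abundant, with Ctnnb1, Ctnna1, Ctnnd1, Cdh1 and Prkd3 always named and the 2 genes most like each member. Promoter sequences are from RefSeq (GRCm38.p6).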

Additional observations from a re-analysis of the deposited data

Results flagged for a closer look

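Among 10 members in the 4 Prkd3-/- lines, 1 value lay far from the rest of its group. Cdh4 was 4.48 CPM in line 13a and at most 0.0371 CPM in the other 3 lines, and the gap to the nearest line took up 0.992 of the whole range. The groups of 3 libraries were not examined in this way. Chance marks about 1 in 20 groups where values are normally distributed. The rule was applied to CPM rather than on a log scale, and CPM of a sparse gene are skewed, so that rate need not hold here. The same line held 175 CPM of summed macrophage markers, and the part of this in the Cdh4 value was not tested.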

How the results depend on the processing

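In WT, 1 member (Pcdh17) was called, and the count changed with most settings. DESeq2 and an adjusted p under 0.05 each called 4 (Cdh4, Pcdh10, Pcdh17 and Pcdh18), library size alone and no filter on low counts each called 2 (Pcdh17 and Pcdh18), where these settings called 5.94%, 4.16% (lower), 2.02% and 1.44% of all genes in that order, and limma, at least 10 counts in every library (which drops the 3 sparse genes) and the joint fit each called 0. The clone number as a replicate block called 0, and it changed no other call. For the filter of at least 10 counts, the joint fit and the block, the share of all genes called is not given. Their 0 is therefore no result about the members. Leaving out single libraries gave 0 to 3 calls in WT and 0 to 2 between pMEFs. DESeq2 called 1 member (Cdh3) in the Prkd3-/- comparison of states and 1 (Cdh3) between lines, where edgeR called 0. Library size alone moved the median of all genes by 0.20 between the lines of the genotypes.

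The following Log2FC changed sign, mostly from values near 0, and the cause was not tested. Pcdh7 in WT, 0.00 in edgeR, became −0.10 with limma, −0.11 with library size alone, −0.0234 with at least 10 counts and −0.10 with the block. Cdh11 in Prkd3-/- became −0.0136 with limma. The interaction of Cdh2 became −0.00067 with DESeq2, −0.38 with limma, −0.0449 without a filter, −0.55 with the block and −0.31 with lines 13 and 13a summed, and that of Cdh11 became 0.00985 with library size and 0.0782 with the sum. Between pMEFs, limma gave −0.11 for Cdh13 and −0.42 for Pcdh10, and library size gave 0.00586 for Pcdh7. Without pMEF library 14 and line 13a together, Pcdh18 in Prkd3-/- was −0.0287 and the interactions of Cdh2, Cdh4 and Cdh11 were −0.18, −1.30 and 0.22.

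Leaving out 1 library at a time turned the sign of further values. In WT the ranges were −0.00299 to 0.63 for Cdh11, −0.32 to 0.0287 for Cdh2, −0.0270 to 0.56 for Cdh3 and −0.47 to 0.19 for Pcdh7. In Prkd3-/- they were −0.27 to 0.49 for Cdh11, −0.81 to 0.18 for Cdh2, −6.50 to 0.35 for Cdh4 and −0.10 to 0.18 for Pcdh18. For the interaction they were −0.57 to 0.19 for Cdh11, −0.14 to 0.52 for Cdh13, −0.64 to 0.37 for Cdh2 and −2.14 to 5.52 for Cdh4. Between pMEFs they were −0.23 to 0.41 for Cdh13, −0.20 to 0.31 for Cdh3, −0.44 to 0.77 for Cdh4, −0.0786 to 0.34 for Pcdh19 and −0.0502 to 0.0590 for Pcdh7. Of all alternative Log2FC values of members, 795 kept direction and side of the threshold, 49 changed sign, 15 passed the threshold newly and 7 no longer passed it. The 34 alternative levels and shares moved by less than the spread (SD) between libraries. For the shares this outcome was fixed beforehand, since leaving out 1 library cannot move the group mean by more than that SD. Only the levels scaled by library size alone could have moved further. Depth limits Pcdh17, Pcdh10 and Cdh4 most, since their lines held between 0 and 31 counts outside line 13a and Prkd3-/- line 15.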
